A study of Homo sapiens with 6 samples.

Results

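Long noncoding RNAs (lncRNAs) that are widely known for work in the nucleus, 10 in all, were followed through K562 cells with less HNRNPU: MALAT1, NEAT1, KCNQ1OT1, FTX, JPX, MIAT, PVT1, MIR17HG, HOTAIRM1 and TUG1. They were chosen by name, and a locus was taken where its gene names held a member. All 10 were found among 62308 loci, and 9 of them reached a mean of 1 FPKM across the 6 libraries, as 12824 loci did. KCNQ1OT1 did not, and is described all the same. FPKM counts fragments per kilobase of transcript relative to library size, so levels can be compared between genes. K562 is an established line from a chronic myelogenous leukemia. The control cells received siRNA control oligos, and the knockdown cells received siRNA against hnRNPU, stated at 300 nM. Each condition was sampled as whole-cell, nuclear and cytosolic RNA, and each of these 6 groups holds 1 library. No group has a replicate, so every difference below is a difference between libraries, with no test and no p-value, and siRNA off-target effects cannot be told apart from the knockdown.

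HNRNPU, also called scaffold attachment factor A, is an abundant nuclear protein that binds chromatin through one domain and RNA through another, and it is known for holding certain lncRNAs on chromosomes. MALAT1 gathers in nuclear speckles beside splicing factors, and NEAT1 is the scaffold of paraspeckles. KCNQ1OT1 silences imprinted genes in cis, FTX and JPX lie in the X-inactivation center, and MIAT forms nuclear bodies of its own in neurons. PVT1 lies beside MYC, HOTAIRM1 lies in the HOXA cluster, MIR17HG is the host transcript of a microRNA cluster, and TUG1 has been described in the nucleus and in the cytoplasm. The comparison asks where each RNA sat and whether that differed when HNRNPU was low.

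The ends of MALAT1 and of the long isoform of NEAT1 are shown because they lack a normal poly(A) tail, while the short isoform of NEAT1 is polyadenylated. In both ends a U-rich stretch folds back on an A-rich stretch near the mature end and stabilizes it. The longest run shared by the last 500 bases of MALAT1-202 and the last 100 bases of NEAT1-202 (GENCODE release 29 transcripts, plus strand of chromosome 11, T for U) has 16 bases and is given in capitals. It lies at bases 8304 to 8319 of 8708 in MALAT1-202 and at bases 22687 to 22702 of 22743 in NEAT1-202.
MALAT1: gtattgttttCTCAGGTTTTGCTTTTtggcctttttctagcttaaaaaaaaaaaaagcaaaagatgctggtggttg
NEAT1: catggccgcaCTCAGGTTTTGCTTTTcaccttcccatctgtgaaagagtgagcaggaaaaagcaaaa

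MIR17HG and FTX carry microRNAs in their primary transcripts, and their nuclear over cytosolic ratios in the control were among the 4 highest of the 10 RNAs without a pseudocount. The mature sequences are from RefSeq (GRCh38.p14), which held 9 of 10 names looked for, and capitals mark the seed, bases 2 to 8. The 6 microRNAs of MIR17HG (plus strand of chromosome 13) have 4 seeds: miR-17-5p and miR-20a-5p share a seed, as do miR-19a-3p and miR-19b-3p.
miR-17-5p: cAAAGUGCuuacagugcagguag
miR-20a-5p: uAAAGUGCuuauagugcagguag
miR-18a-5p: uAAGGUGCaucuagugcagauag
miR-19a-3p: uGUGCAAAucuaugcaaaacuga
miR-19b-3p: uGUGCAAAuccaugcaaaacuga
miR-92a-3p: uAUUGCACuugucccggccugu
The 3 that were found for FTX (minus strand of chromosome X) have 3 different seeds, and miR-374a-5p also lies there.
miR-545-3p: uCAGCAAAcauuuauugugugc
miR-374b-5p: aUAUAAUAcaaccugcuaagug
miR-421: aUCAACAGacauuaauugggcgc
The microRNAs themselves were not measured. Their own loci inside FTX, such as MIR421, were listed at 0 in all 6 libraries, so only the host transcripts are described.

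The HNRNPU locus, merged with HNRNPU-AS1, was lower in each knockdown library, at 43.0% of the control level in whole-cell RNA, 39.0% in nuclear RNA and 22.1% in cytosolic RNA. Erythroid genes typical of K562 were present in all 6 libraries: GATA1 at 26.2 to 55.9 FPKM, TAL1 at 24.8 to 45.4 FPKM and the merged locus of the globin genes HBG2 and HBE1 at 513 to 1560 FPKM. Depth was estimated from the steps that single fragments make in low values: 1 FPKM over 1 kilobase stood for 13.4 (control) and 14.9 fragments (knockdown) in the cytosolic libraries, 19.5 and 39.3 in the nuclear ones, and 23.3 and 18.8 in the whole-cell ones. Each log2 value below has a 95% counting interval from the estimated fragments, which covers counting error only and not the spread between cultures.

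The 10 RNAs spanned more than 3 orders of magnitude in level. MALAT1 (chromosome 11, 65265233 to 65273940, hg19) measured 1333 FPKM in whole-cell RNA of the control and 1257 FPKM after knockdown. Its nuclear levels were 1984 and 2352 FPKM, and its cytosolic levels 141 and 106 FPKM, in the same order as all pairs of values below. MALAT1 led in all 6 libraries, in the cytosol too. In bulk libraries such as these, fewer cells with an RNA and less of it per cell cannot be told apart. NEAT1 (chromosome 11, 65190245 to 65213011, with 52221 bases between the 2 loci) had 72.0 and 75.9 FPKM in whole-cell, 67.2 and 59.4 FPKM in nuclear, and 13.7 and 12.9 FPKM in cytosolic RNA. It came next after MALAT1 in whole-cell and nuclear RNA, and after TUG1, PVT1 and JPX as well in cytosolic RNA.

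TUG1 (chromosome 22, 31366663 to 31375381) had 25.8 and 27.6 FPKM in whole-cell, 31.7 and 35.3 FPKM in nuclear, and 35.1 and 38.2 FPKM in cytosolic RNA. Its 6 values lay within the narrowest range of the 10 RNAs in fold. MIR17HG (chromosome 13, 92000074 to 92006833) had 18.6 and 18.7 FPKM in whole-cell, 25.9 and 27.7 FPKM in nuclear, and 1.51 and 1.37 FPKM in cytosolic RNA. PVT1 (chromosome 8, 128806779 to 129113499) had 14.7 and 19.1 FPKM in whole-cell, 15.0 and 15.9 FPKM in nuclear, and 34.8 and 23.6 FPKM in cytosolic RNA. MIR17HG was thus at its lowest in the cytosol and PVT1 at its highest there, in both conditions.

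The loci of JPX and FTX overlap on chromosome X, from opposite strands, over 106878 bases. JPX (73164159 to 73290667, merged with the clone-named RP13-33H18.1) had 14.8 and 15.1 FPKM in whole-cell, 8.57 and 12.4 FPKM in nuclear, and 15.1 and 24.5 FPKM in cytosolic RNA. FTX (73183790 to 73513409) had 7.56 and 9.10 FPKM in whole-cell, 9.97 and 8.25 FPKM in nuclear, and 0.444 and 1.55 FPKM in cytosolic RNA. JPX was therefore the more abundant in the cytosol and FTX the scarcer.

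The remaining RNAs were scarce. MIAT (chromosome 22, 27042392 to 27176170, merged with the clone-named CTA-211A9.5) had 2.96 and 3.15 FPKM in whole-cell, 2.83 and 4.34 FPKM in nuclear, and 5.58 and 5.72 FPKM in cytosolic RNA. HOTAIRM1 (chromosome 7, 27135266 to 27139884) had 2.02 and 1.47 FPKM in whole-cell, 2.75 and 1.29 FPKM in nuclear, and 2.76 and 3.81 FPKM in cytosolic RNA. KCNQ1OT1 (chromosome 11, 2629558 to 2721224) had 0.649 and 0.527 FPKM in whole-cell, 0.698 and 0.534 FPKM in nuclear, and 0.0386 and 0.0507 FPKM in cytosolic RNA. KCNQ1OT1 was the lowest of the 10 in every library, yet its length of 91667 bases gave it about 47.4 and 69.0 cytosolic and 1243 and 1918 nuclear fragments. HOTAIRM1 rested on far fewer, 11.1 to 22.8 fragments in each of the 6 libraries.

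**Figure D1:**
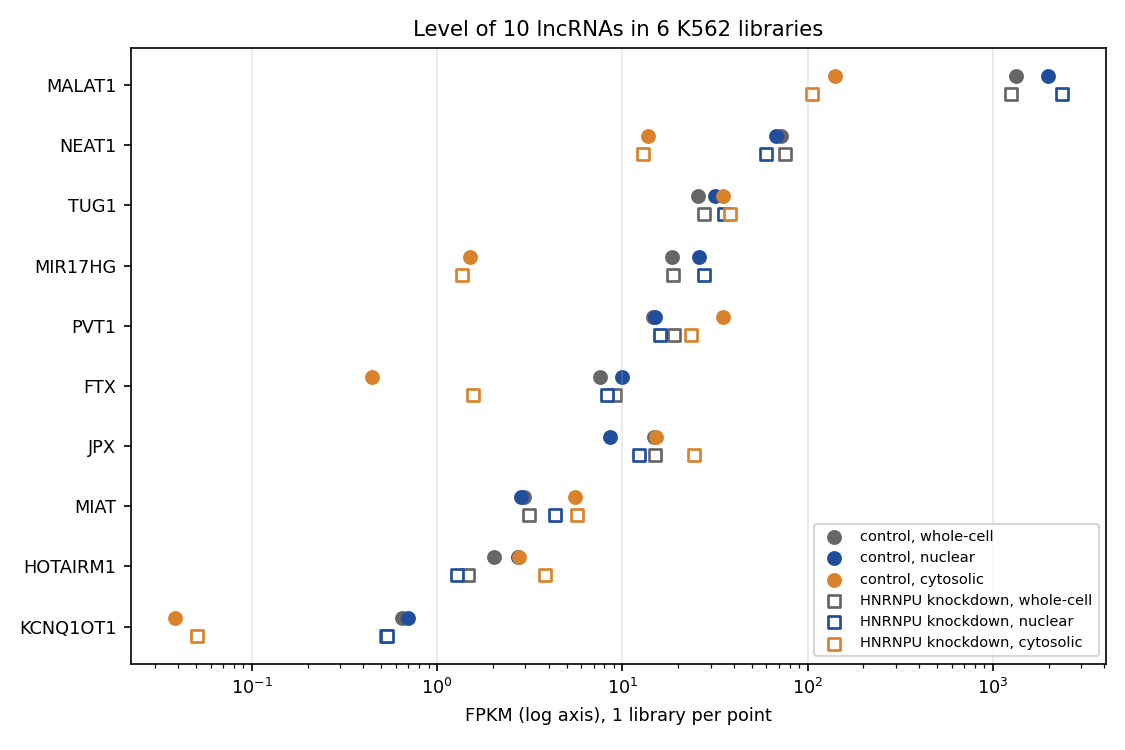
Level of the 10 lncRNAs in FPKM (log axis), 1 point per library: filled circles for the control, open squares for HNRNPU knockdown, colored by preparation. The cytosolic points of MALAT1, NEAT1, MIR17HG, FTX and KCNQ1OT1 lie far to the left of their nuclear points, while those of PVT1, JPX and MIAT lie to the right.

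The order of the levels was alike in both conditions. In control whole-cell RNA it ran MALAT1, NEAT1, TUG1, MIR17HG, JPX, PVT1, FTX, MIAT, HOTAIRM1 and KCNQ1OT1. PVT1 moved from the sixth to the fourth place after knockdown, past neighbours that were within a few FPKM of it. With 1 library per group, the spread between samples is not known, so neighbours in this order cannot be separated. In cytosolic RNA the order was different, with TUG1, PVT1 and JPX next after MALAT1 in both conditions.

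Nuclear over cytosolic ratios split the 10 RNAs into 5 and 5. MALAT1, NEAT1, KCNQ1OT1, FTX and MIR17HG were at least 2-fold higher in nuclear than in cytosolic RNA in the control, where 16.0% of all loci were, and the same 5 were so after knockdown, where 14.4% of all loci were. Ratios were taken on log2(FPKM + 0.1), which understates those of low RNAs. In the control the log2 ratio was 4.21 for FTX (counting interval 3.71 to 4.72), 4.02 for MIR17HG (3.56 to 4.48) and 3.82 for MALAT1 (3.75 to 3.88). Of 294 lncRNA loci that reached a mean of 1 FPKM, 5, 7 and 13 lay above them. KCNQ1OT1 had 2.53 (2.39 to 2.66) and NEAT1 2.29 (2.18 to 2.39). The intervals of FTX, MIR17HG and MALAT1 overlap, and those of KCNQ1OT1 and NEAT1 lie just apart.

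After knockdown MIR17HG had a log2 ratio of 4.24 (3.79 to 4.69) and MALAT1 one of 4.47 (4.40 to 4.54), with 2 and 1 of the 294 lncRNA loci above them. FTX had 2.34 (2.04 to 2.64), NEAT1 2.19 (2.09 to 2.29) and KCNQ1OT1 2.07 (counting error 0.065, SE). FTX thus lay well above NEAT1 in the control and close to it after knockdown. Without the pseudocount the ratio of KCNQ1OT1 was 18.1 in the control and 10.5 after knockdown, beside 14.1 and 22.2 for MALAT1. The cytosolic values of KCNQ1OT1 lie below the pseudocount. With a pseudocount of 1 FPKM its log2 ratios were 0.71 and 0.55, under 2-fold, and MALAT1 (3.81) lay above MIR17HG (3.42) and FTX (2.93) in the control.

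The other 5 RNAs had ratios below 0 in both conditions. At any size, 34.8% of all loci were higher in nuclear than in cytosolic RNA in the control and 33.0% after knockdown. PVT1 had a log2 ratio of -1.20 in the control (-1.56 to -0.85) and -0.57 after knockdown (-0.88 to -0.25). MIAT had -0.96 (-1.28 to -0.63) and -0.39 (-0.64 to -0.14), and JPX -0.81 (-1.06 to -0.56) and -0.98 (-1.15 to -0.81). TUG1 lay near 0 in both conditions, with -0.14 (-0.23 to -0.05) and -0.11 (-0.19 to -0.04). HOTAIRM1 had -0.0029 (-0.92 to 0.92) in the control and -1.49 (-2.31 to -0.67) after knockdown. PVT1 in the control and HOTAIRM1 after knockdown were at least 2-fold lower in nuclear RNA, as 29.1% and 28.4% of all loci were. Both calls are lost under the other scalings, with -0.67 and -0.21 for PVT1 and -0.99 and -0.57 for HOTAIRM1.

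The scaling of the fractions decides the sign for most of these 5, so the label of nuclear RNAs is met by 5 of the 10 as the values were deposited. The median log2 ratio of all 12824 loci was -0.44 in the control and -0.47 after knockdown, and that of the 294 lncRNA loci -0.11 and -0.21. The 10 RNAs had 1.14 and 0.98, values between the 2 groups of 5 that describe neither. Measured from the median of all loci, TUG1 and HOTAIRM1 were on the nuclear side in the control. Equal totals without mitochondrially encoded and small RNA loci move the median of all loci by 0.97 in the control and 0.94 after knockdown. With libraries scaled this way, 9 of the 10 (all but PVT1) were higher in nuclear RNA in the control. After knockdown 8 (all but JPX and HOTAIRM1) were. PVT1 kept a ratio below 0 in the control under every scaling tried (-0.21 at its highest). A list of lncRNAs with known roles in the cytoplasm had 12 loci that reached 1 FPKM, of which 1, LINC00493, is classed as protein-coding. All 12, such as OIP5-AS1 (-2.26) and ZFAS1 (-2.22), had control ratios below 0, with a median of -1.68, while 34.8% of all loci were above 0. The list was chosen with earlier results of these data known, so it is no independent check on the fraction labels. The list of other RNAs taken as nuclear did not stand on the opposite side: 6 of its 10 loci were also below 0, with a median of -0.83.

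**Figure D2:**
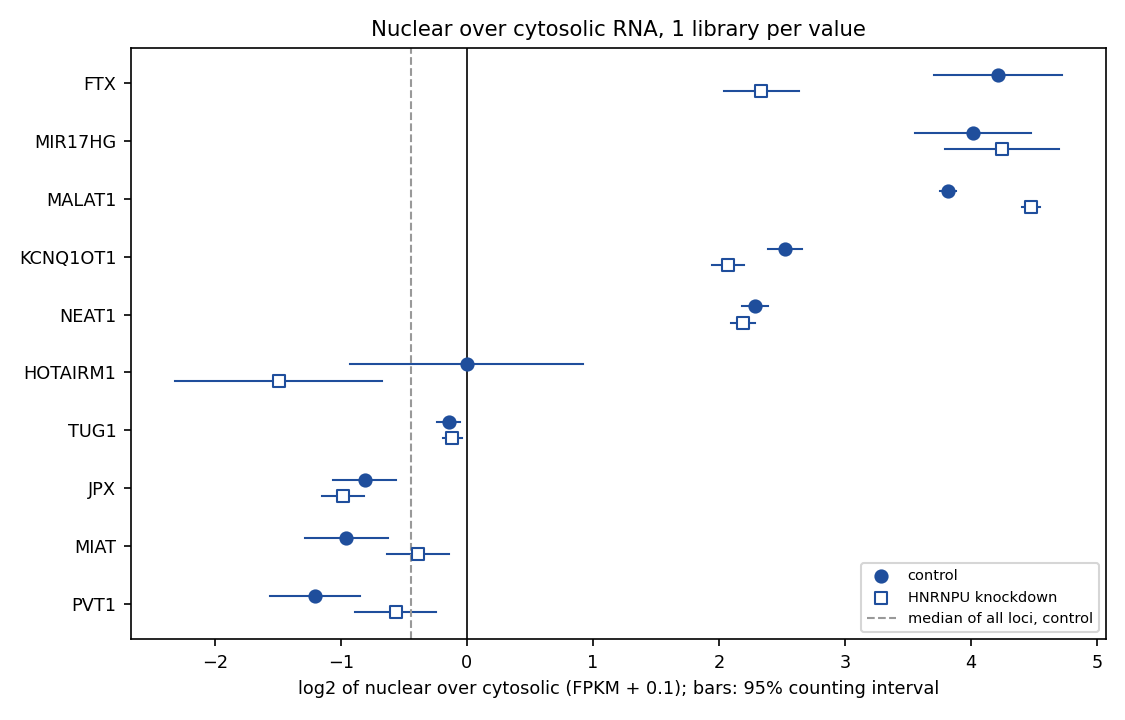
Log2 of nuclear over cytosolic RNA (FPKM + 0.1) for each lncRNA, filled circles for the control and open squares for knockdown, with bars for the 95% counting interval and a dashed line at the control median of all loci (-0.44). The top 5 RNAs lie above 2 in both conditions, and the squares of FTX and HOTAIRM1 lie far to the left of their circles.

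Nuclear over whole-cell ratios lay much closer to 0. As deposited, none of the 10 was 2-fold apart either way in either condition. In nuclear RNA 2.46% of all loci were at least 2-fold higher and 1.66% lower in the control, and 1.81% and 1.93% after knockdown. MALAT1 had the highest log2 ratio, 0.57 (0.55 to 0.59) in the control and 0.90 (0.88 to 0.92) after knockdown. MIR17HG had 0.48 (0.34 to 0.62) and 0.56 (0.43 to 0.69), and TUG1 0.30 (0.22 to 0.38) and 0.35 (0.28 to 0.43). NEAT1 was the one of the 5 nuclear RNAs below 0 in both conditions, with -0.10 (-0.15 to -0.05) and -0.35 (-0.40 to -0.31): its whole-cell level exceeded both of its fraction levels in both conditions. FTX went from 0.39 (0.24 to 0.55) to -0.14 (-0.28 to -0.00051).

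JPX was lowest of the 10 in the control, at -0.78 (-1.01 to -0.55), and had -0.28 (-0.46 to -0.10) after knockdown. MIAT lay the other way after knockdown, at 0.45 (0.17 to 0.73) against -0.06 (-0.40 to 0.27) in the control. KCNQ1OT1 (0.09 and 0.02), PVT1 (0.03 and -0.27) and HOTAIRM1 (0.42 and -0.18) had intervals that include 0 in both conditions, and with other scalings KCNQ1OT1 lay below 0 in both and PVT1 in the control. The median of all loci was 0.16 in the control and 0.12 after knockdown, and that of the 10 RNAs 0.20 and -0.06.

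In whole-cell RNA none of the 10 RNAs was 2-fold apart after knockdown, as 1.36% of all loci were upward and 1.29% downward. Beyond the counting interval 4 were higher and 2 lower, where 23.5% and 9.00% of the 10442 loci with a known length were. Under both other scalings FTX (0.19 and 0.21), MALAT1 and KCNQ1OT1 stayed beyond an interval of the same width. NEAT1 (0.0014 and 0.02), TUG1 (0.02 and 0.04) and PVT1 (0.30 and 0.32) did not. MALAT1 kept 94.3% of its control level, NEAT1 105%, TUG1 107%, MIR17HG 101%, JPX 102% and MIAT 106%, and MIR17HG and JPX were lower than the control by up to a log2 ratio of -0.06 and -0.05 under other scalings. FTX had 120%, a log2 ratio of 0.26 (0.11 to 0.42), and PVT1 130%, a log2 ratio of 0.37 (0.01 to 0.73). KCNQ1OT1 had 81.2% (log2 ratio -0.26, -0.36 to -0.15). HOTAIRM1 had 72.7%, with an interval from -1.44 to 0.57. The median log2 ratio of the 10 was 0.05, beside 0.06 for all loci.

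In nuclear RNA HOTAIRM1 was at least 2-fold lower after knockdown, with 46.9% of its control level and a log2 ratio of -1.04 (-1.86 to -0.21), where 1.50% of all loci were that much lower. With a pseudocount of 1 FPKM it was -0.71, under 2-fold. None was that much higher, as 1.04% of all loci were. MIAT had 154% of its control level (0.60, 0.32 to 0.89) and JPX 144% (0.53, 0.31 to 0.74). The speckle RNA MALAT1 had 119% (0.25, 0.23 to 0.26). On the lower side were FTX at 82.8% (-0.27, -0.40 to -0.14), KCNQ1OT1 at 76.5% (-0.33, -0.42 to -0.24) and NEAT1 at 88.3% (-0.18, -0.22 to -0.13). TUG1 had 111%, MIR17HG 107% and PVT1 106%. In this preparation 4 of the 10 were higher and 4 lower by more than the counting interval, where 24.5% and 17.4% of loci with a known length were.

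In cytosolic RNA FTX had 351% of its control level, and its log2 ratio with the pseudocount was 1.61 (1.03 to 2.18). It was the only one of the 10 that was at least 2-fold higher, as 2.62% of all loci were, and none was that much lower, as 2.63% were. With a pseudocount of 1 FPKM the log2 ratio of FTX was 0.82, under 2-fold. JPX had 162% of its control level (0.69, 0.48 to 0.91). PVT1 had 67.8% (-0.56, -0.90 to -0.22) and MALAT1 75.2% (-0.41, -0.50 to -0.32). The other 6 ranged from 90.8% for MIR17HG to 138% for HOTAIRM1, and of them only TUG1, at 109%, had an interval that leaves out 0 (log2 ratio 0.12, 0.03 to 0.21). That makes 3 higher and 2 lower beyond the counting interval, where 20.3% and 13.6% of loci with a known length were. As deposited, JPX, MIAT and TUG1 were higher in all 3 preparations, as 24.6% of all loci were (JPX not under other scalings). Only TUG1 was beyond the counting interval in each as deposited. The whole-cell intervals of JPX (-0.17 to 0.22) and MIAT (-0.24 to 0.41) include 0. The whole-cell log2 ratio of TUG1, 0.10 (counting error 0.045, SE), fell to 0.02 and 0.04 under the other scalings, which is not beyond the counting interval. None of the 10 was lower in all 3, as 13.2% were.

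**Figure D3:**
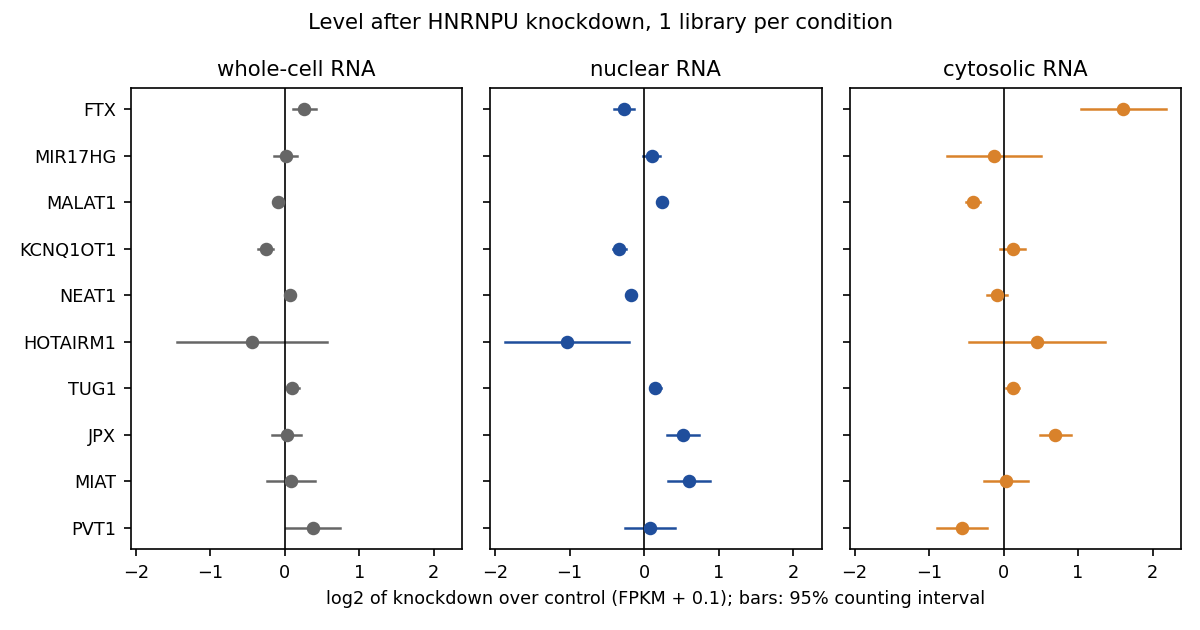
Log2 of knockdown over control (FPKM + 0.1) in whole-cell, nuclear and cytosolic RNA, 1 library per condition, with bars for the 95% counting interval. Whole-cell values lie close to 0, HOTAIRM1 is at -1.04 in nuclear RNA, and FTX at 1.61 in cytosolic RNA.

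The localization shift is the log2 nuclear over cytosolic ratio after knockdown minus that in the control, and a value below 0 is toward the cytosol. FTX and HOTAIRM1 had a 2-fold or larger shift to the cytosol, as 3.83% of all loci and 9.52% of the 294 lncRNA loci were. None of the 10 was shifted 2-fold to the nucleus, as 3.28% of all loci were. At any size 5 of the 10 were shifted to the nucleus, as 50.1% of all loci were. FTX had a shift of -1.88 (-2.46 to -1.29), from about 21.8 and 84.7 cytosolic fragments, and 7 of the 294 lncRNA loci had a lower one. HOTAIRM1 had -1.49 (-2.72 to -0.26). Its interval spans shifts from slight to large, and at a minimum mean of 5 FPKM it drops out and FTX alone is left.

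KCNQ1OT1 was shifted the same way by less, -0.45 (-0.64 to -0.27). Without the pseudocount its shift was -0.78, and with a pseudocount of 1 FPKM it was -0.16. Its nuclear level was lower by 0.33 while its cytosolic ratio of 0.12 (-0.04 to 0.28) lay within the counting error. The shift of NEAT1 was -0.10 (-0.24 to 0.05) and that of JPX -0.17 (-0.47 to 0.13), both with intervals that include 0.

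MALAT1, PVT1 and MIAT were shifted toward the nucleus, by 0.66 (0.56 to 0.75), 0.64 (0.16 to 1.12) and 0.57 (0.16 to 0.98). The libraries behind these values differed. Among the fractions, MALAT1 was beyond the counting interval in both, higher in nuclear and lower in cytosolic RNA. PVT1 was so in cytosolic RNA alone, where it was lower, and MIAT in nuclear RNA alone, where it was higher. MIR17HG had 0.23 (-0.42 to 0.87) and TUG1 0.03 (-0.09 to 0.14, below 0 under another scaling), and both intervals include 0. Beyond their counting intervals were 3 of the 10 to the nucleus, where 15.0% of loci with a known length were, and 3 to the cytosol, where 14.3% were. The median shift was -0.03 for the 10 RNAs, 0.00058 for all loci and -0.04 for the lncRNA loci.

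**Figure D4:**
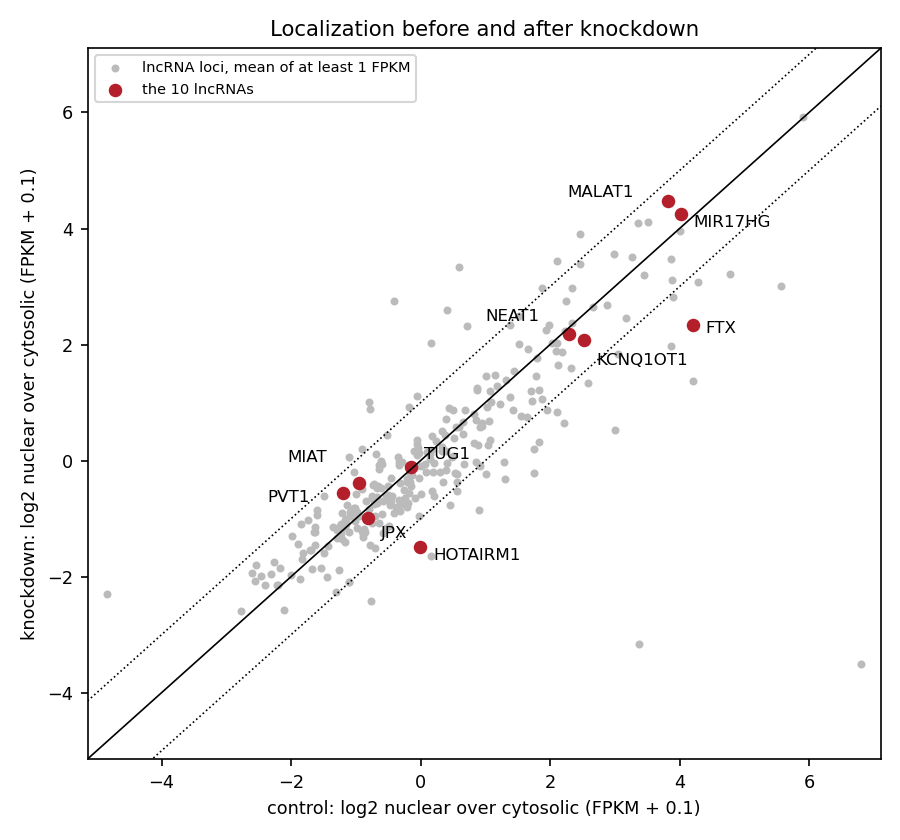
Log2 nuclear over cytosolic RNA (FPKM + 0.1) after knockdown against the control, for 294 lncRNA loci in grey and the 10 lncRNAs in red. The solid line marks no shift and the dotted lines a 2-fold shift; FTX and HOTAIRM1 lie below the lower dotted line.

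Other transcripts lie within several of these loci, and strand use in the counting was not given in the sources used here. In the cytosol JPX (15.1 and 24.5 FPKM) and FTX (0.444 and 1.55 FPKM) were both higher after knockdown, on overlapping loci of opposite strands. The part of JPX fragments in the cytosolic FTX value was not tested. A clone-named locus inside FTX, RP3-368A4.6, had 0.149 and 0.173 FPKM in the cytosol. Within PVT1, the U1 small nuclear RNA pseudogene RNU1-106P was listed at 0 and 52.5 FPKM in whole-cell RNA, at 54.9 and 21.8 FPKM in nuclear RNA, and at 0 in the cytosol. At 164 bases RNU1-106P is shorter than the 220 bases taken off lengths here, so the fragments behind these values could not be estimated. KCNQ1, the gene that KCNQ1OT1 runs against, was listed at 0 in all 6 libraries.

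Genes beside the 10 RNAs, or known as their targets in cis, were looked at as a list. All 26 were found, at 25 loci because HOXA3 and HOXA4 share 1. Of these loci 13 had a mean of at least 1 FPKM. None of the 13 was 2-fold apart after knockdown in any preparation, where only 1.04% to 2.63% of all loci were in each direction. Their median log2 ratio was -0.00045 for whole-cell RNA, -0.10 for nuclear RNA and 0.07 for cytosolic RNA. MYC, the oncogene beside PVT1, had 34.8 FPKM in both whole-cell libraries, and 62.4 and 62.8 FPKM in cytosolic RNA, where PVT1 was lower. CDKN1C, a cell cycle inhibitor that KCNQ1OT1 silences in other tissues, had whole-cell levels of 2.70 and 2.83 FPKM, nuclear levels of 5.87 and 4.04 FPKM (log2 ratio -0.53) and a shift of -0.47. PHLDA2, also imprinted there, had whole-cell levels of 6.30 and 6.68 FPKM. RLIM, an X-linked ubiquitin ligase near FTX, had 7.51 and 7.62 FPKM. The single neighbour with a 2-fold shift, as 3.83% of all loci had to the cytosol, was FRMD8, beside NEAT1. Its nuclear levels were 16.1 and 9.58 FPKM and its cytosolic levels 11.0 and 15.6 FPKM, a shift of -1.24.

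A second list held 19 other noncoding RNAs taken as nuclear, of which 16 were found and 10 passed the minimum mean. In the control 4 of the 10 were higher in nuclear than in cytosolic RNA, beside 34.8% of all loci. These 4 included RMRP (1.53) and TERC (1.01), the RNA parts of RNase MRP and telomerase. RPPH1 (-4.98) and RN7SK (-1.78) were far lower in nuclear RNA. Of this list 1 locus, PCAT6, had a 2-fold or larger shift to the cytosol (-1.80), as 3.83% of all loci did. All 6 values of PCAT6 lay between 0.550 and 2.69 FPKM. In cytosolic RNA the knockdown over control ratio was -0.59 (log2) for RMRP and -0.65 for TERC. The median of the 10 loci in that preparation was -0.02, with 5 higher and 5 lower after knockdown. The median shift of the 10 that passed was 0.05, and that of the 12 loci of the cytosolic list 0.10.

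Profiles over the 6 libraries were compared by the Euclidean distance between log2(FPKM + 0.1) values centred on each locus, among 8444 named loci whose mean reached 5 FPKM. The locus nearest to MALAT1 was MIR17HG, at a distance of 0.34, followed by SCARNA10, a small Cajal body RNA (0.53), and the merged locus of GABRE, MIR224 and MIR452 (0.54). Nearest to NEAT1 were UGDH-AS1 (0.15), the clone-named AC007743.1 (0.26) and the pseudogene HERC2P2 (0.27). The nuclear levels of UGDH-AS1 were 20.0 and 19.8 FPKM and its cytosolic levels 4.18 and 4.14 FPKM. FTX had no close match: the nearest were TMEM63A (1.01), the microRNA locus MIR142 (1.11) and the clone-named LL22NC03-N14H11.1 (1.11). The distance is over 6 libraries only.

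Transcript structure was read from GENCODE release 29. The longest transcript has a single exon in MALAT1, NEAT1 and KCNQ1OT1, which are 3 of the 5 RNAs with nuclear ratios above 2-fold. In the other 5 RNAs it has 2 to 8 exons: 2 in HOTAIRM1, 3 in TUG1, 5 in MIAT, 6 in JPX and 8 in PVT1. The longest transcripts of FTX (4 exons) and MIR17HG (2 exons) are spliced. The longest transcripts of the 5 nuclear RNAs have a GC content of 37.2% (FTX) to 44.1% (NEAT1), and those of the other 5 range from 37.7% (JPX) to 52.2% (PVT1). These are descriptions of 10 genes chosen by name, and no relation to location was tested.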

How the data were processed

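RNA of K562 cells was measured in 6 libraries. The labels' protocols state TRIzol extraction, ribosomal RNA depletion of the preparations and strand-specific libraries for total RNA, and name sequencing providers without saying which libraries each made. The authors deposited FPKM values for 62828 loci, with 1 column for each library, and the unit was taken from the values and the tools. Cuffdiff 2.2.1, TopHat2 2.0.13, FastQC, CASAVA, hg19 and mm9 are listed in the submitters' processing notes, with no roles, and the coordinates are of hg19. Library scaling, annotation and strand setting were not given in the sources used here. Starts are counted from 0 in the table (893 of 971 microRNA loci have their hairpin's length that way) and are printed from 1.

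XIST and chromosome Y (520 loci) were left out. Ratios are differences of log2(FPKM + 0.1), called at a log2 size of 1, which is 2-fold. The minimum mean of 1 FPKM applied to the loci set beside the members, not to the members. All 10 members are named. Likeness names the 3 nearest loci to MALAT1, NEAT1 and FTX. Lists name at most 4 loci with the largest values. MYC, CDKN1C, PHLDA2, RLIM and overlapping loci were named for their place, and TERC beside RMRP, after their values were seen. Members and lists were chosen with earlier results of these data known. Classes came from GENCODE release 29 and RefSeq symbols. Fragments were estimated from the step of low values over 3816 loci with a single exon and from mean transcript lengths less 220 bases, which 81.4% of loci had. Annotated lengths are uncertain for genes with many transcripts. Tested on 10442 simulated loci, the 95% intervals held the true value for 94.9% of those with no shift. For shifted loci they held it for 92% to 96%. All loci of 50 each with shifts of -2, -1, 1 and 2, put in only at a mean of at least 5 FPKM, had the right direction. Fragments were drawn with the lengths, depths and counting error that the intervals assume, so only the calculation was checked. The work used matplotlib 3.10.9, scipy 1.17.1, pandas 2.3.3 and numpy 2.4.6 under Python 3.11.15. Alternatives were other pseudocounts, scalings, minimum means and loci named by the member alone. Some results are not reported here.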

Additional observations from a re-analysis of the deposited data

Results flagged for a closer look

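In 2 of the RNAs the nuclear and the cytosolic library differed from their controls in opposite directions and by at least 2-fold from each other. For FTX the log2 ratio of knockdown to control was -0.27 in nuclear and 1.61 in cytosolic RNA, a difference of -1.88. For HOTAIRM1 it was -1.04 and 0.45, a difference of -1.49. With 1 library per group neither difference was tested against the spread between cultures.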

How the results depend on the processing

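No paired analysis was possible because each group holds 1 library with no replicate number. No member's value of 2-fold or more changed sign, but some fell under 2-fold. With a pseudocount of 1 FPKM these were nuclear over cytosolic KCNQ1OT1 (0.71 and 0.55), cytosolic FTX after knockdown (0.82) and nuclear HOTAIRM1 after knockdown (-0.71). With the protein-coding median and equal totals they were nuclear over cytosolic PVT1 in the control (-0.67, -0.21) and HOTAIRM1 after knockdown (-0.99, -0.57). FTX and HOTAIRM1 kept a 2-fold or larger shift to the cytosol with pseudocounts of 0.01 and 1 FPKM and under both other scalings, with shifts of -2.06 to -1.07 and -1.55 to -1.07. The median log2 nuclear over cytosolic ratio of the members was 1.14 in the control and 0.98 after knockdown. It was 0.35 and 0.22 with a pseudocount of 1 FPKM, 1.63 and 1.35 with libraries scaled to the protein-coding median, and 1.94 and 1.67 with equal totals without mitochondrially encoded and small RNA loci. Equal totals also gave 9 and 8 members higher in nuclear RNA, against 5 and 5. This scaling moved the median of all loci too, by 0.97 in the control and 0.94 after knockdown. The rise in these counts is therefore not particular to the members. The ratio's median was 2.29 and 2.19 over the 7 members with a mean of at least 5 FPKM, of which 1 was shifted to the cytosol. It was 2.41 and 2.13 over the 8 loci named by the member alone. An alternative added after seeing the data, the 9 members with a mean of at least 1 FPKM, gave -0.0029 and -0.11. The median nuclear over whole-cell ratio in the control was 0.046 scaled to the protein-coding median, -0.012 with equal totals and 0.35 over loci named by the member alone, and after knockdown it was -0.23 with equal totals. The median knockdown ratio in nuclear RNA was -0.050 over loci named by the member alone, against 0.09. With no minimum mean, 10.1% of all loci had a 2-fold or larger cytosolic shift, and at a minimum of 5 FPKM 0.813%. Depth limits HOTAIRM1 (11.1 to 22.8 fragments), the control cytosolic value of FTX (21.8) and the cytosolic values of MIR17HG (34.7 and 34.9) most.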

Other observations

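Whole-cell RNA can be written as a weighted sum of the nuclear and cytosolic libraries, which gives a scale of location that does not depend on how the fractions were scaled. Weights were fitted over 8003 protein-coding loci (mean of 5 FPKM or more, above 0 in all 6 libraries) by non-negative least squares on relative values, a calculation chosen after the data were seen. They were 0.594 nuclear and 0.143 cytosolic in the control, and 0.593 and 0.157 after knockdown, and the median absolute gap between fitted and measured whole-cell values was 0.15 log2 units in each. On this scale the median protein-coding locus had an estimated nuclear share of 71.4% in the control and 69.7% after knockdown. The share takes the nuclear library as free of cytosolic RNA, which was not tested. It is thus not a measured portion of the RNA in the nucleus. The nuclear share was 98.3% and 98.8% for MALAT1, 98.6% and 98.7% for MIR17HG, 98.7% and 97.5% for KCNQ1OT1, 98.9% and 95.2% for FTX, and 95.3% and 94.5% for NEAT1. TUG1 had 79.0% and 77.7%, MIAT 67.8% and 74.1%, PVT1 64.2% and 71.7%, JPX 70.2% and 65.5%, and HOTAIRM1 80.6% and 56.0%. The estimated share of FTX was above that of the median protein-coding locus in both conditions. The share of HOTAIRM1 after knockdown rests on 20.3 nuclear and 22.8 cytosolic fragments and cannot be told from an even split at this depth.

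The sum did not account for all of these RNAs equally well. For NEAT1 the fitted whole-cell level was 41.9 FPKM in the control against 72.0 FPKM measured, and 37.2 against 75.9 FPKM after knockdown. KCNQ1OT1 was also below its measured level in both conditions (log2 -0.63 and -0.70), and JPX was so most in the control (-1.03, and -0.43 after knockdown). For FTX the gap was -0.34 in the control and -0.82 after knockdown. PVT1 had a gap of -0.08 in the control and -0.54 after knockdown. MALAT1 lay closer, at -0.15 and 0.17, and MIR17HG at -0.25 and -0.17. The shares of the RNAs with large gaps therefore rest on fractions that do not add up to their whole-cell level.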
